A study of Mus musculus with 6 samples.

Results

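The Egr genes encode zinc finger transcription factors of the immediate early class, and the Nab genes encode corepressors that bind Egr proteins. All probe sets with a single platform gene symbol among Egr1, Egr2, Egr3, Egr4, Nab1 and Nab2 were taken, which gave 10 of the 45037 tested probe sets and 6 of the 18193 genes. They were measured in cochlear lateral wall, which comprises the ion-transporting stria vascularis and, behind it, the fibrocytes of the spiral ligament. The 3 OldAdult arrays came from CBA/CaJ mice aged 1.5 years and the 3 YoungAdult arrays from CBA/CaJ mice aged 1 to 3 months, and both groups were of both sexes, bred in house with little noise, with no allele or agent named for either. Whether a sample was 1 animal or a pool is not stated. In all samples but 1, sex-linked signals given below were those that mixed tissue of both sexes would give. The p-values therefore measure the spread between these samples, which may be partly technical. The values are log2 signals from 1-colour Affymetrix 3′ expression arrays, and all differences are OldAdult minus YoungAdult. The genes were chosen with results of this age comparison in view, among them the low OldAdult values of Egr1 and Egr3. Their differences are therefore given as a description. The limma intervals and calls printed for them do not allow for that choice and are not read as tests. Differences chosen for their size may be overstated.

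Egr transcription is switched on within minutes of growth factor, depolarisation or stress signals, mainly through ERK kinases and the serum response factor with its Elk partners at CArG boxes of Egr promoters. Egr proteins then bind GC-rich sites through a shared zinc finger domain and regulate further genes. Nab1 and Nab2 dock on Egr proteins and repress through the NuRD chromatin remodelling complex, and Nab2 is itself an Egr target in several cell types, which closes a feedback loop. Egr2 is also the master regulator of peripheral myelin in Schwann cells.

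Promoter windows were available for 4 of the 6 genes in the RefSeq table of build GRCm38.p6, namely Egr2, Egr4, Nab1 and Nab2. The 250 bases before each start were searched on both strands for 3 motifs, the CArG box of the serum response factor, the CREB site TGACGTCA and the Egr site GCGNGGGCG. Egr2 and Nab1 are shown because their windows held matches to the input side and to the output side of the pathway. The Egr2 window lies at chr10:67537680-67537929 on the plus strand and the Nab1 window at chr1:52500449-52500698 on the minus strand, both 5′ to 3′, with the matches in capitals.
Egr2: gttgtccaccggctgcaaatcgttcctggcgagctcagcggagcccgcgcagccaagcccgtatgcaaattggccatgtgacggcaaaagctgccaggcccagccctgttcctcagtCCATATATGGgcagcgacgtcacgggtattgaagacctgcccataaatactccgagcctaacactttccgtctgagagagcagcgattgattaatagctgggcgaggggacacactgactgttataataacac
Nab1: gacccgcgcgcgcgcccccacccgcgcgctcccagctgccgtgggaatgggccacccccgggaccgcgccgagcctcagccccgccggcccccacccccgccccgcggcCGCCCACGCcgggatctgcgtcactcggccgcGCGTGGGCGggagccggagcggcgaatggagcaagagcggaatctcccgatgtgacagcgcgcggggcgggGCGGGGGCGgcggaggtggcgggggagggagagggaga
The capitals in Egr2 mark a CArG box, which reads the same way on both strands, and those in Nab1 mark 3 Egr sites, the first on the opposite strand. A CArG box was present in 4 of the 5 Egr2 windows in the table, some of which overlap, and in 1.47% of all 32851 windows. The Egr site was present in 4.7% of all windows. The TGACGTCA motif was found in 0 of the 8 windows of these genes and in 1.55% of all windows, and the Egr4 and Nab2 windows held 0 matches to any of the 3 motifs. A match is a run of letters, not a measured binding site.

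YoungAdult replicate 2 stood apart from the other arrays in sex-linked genes. It had an Xist signal of 6.06, where the other YoungAdult arrays had 12.31 and 11.95 and the OldAdult arrays 12.27, 12.65 and 12.24, while the Y-linked Eif2s3y had 9.43, 8.97 and 9.71 in OldAdult and 9.52, 10.46 and 9.59 in YoungAdult arrays. Both genes were thus high on every array except YoungAdult replicate 2, as mixed tissue of both sexes would give. On YoungAdult replicate 2 only Eif2s3y was high. The Egr and Nab results are also given without that array. As a sign of RNA quality, the log2 signal at the 3′ end of Gapdh minus that at its 5′ end was 1.45, 1.26 and 1.37 in OldAdult arrays and 1.25, 1.22 and 1.07 in YoungAdult arrays. The 2-sided exact permutation p for that difference was 0.1, the smallest that 3 against 3 arrays can give. For Actb the same measure was 1.39, 1.77 and 1.84 in OldAdult and 1.60, 1.53 and 1.46 in YoungAdult arrays, which overlapped (2-sided exact permutation p = 0.4). The part of RNA quality in the Egr values was not tested. The time, order and day of dissection are not in the sample details used here. The part of handling at dissection in the Egr values was therefore not tested either. In whole tissue, fewer cells of a type and less RNA per cell cannot be told apart.

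The tissue carried its defining markers on every array. The mean log2 signal of 7 fibrocyte markers was 13.25 to 13.30 in OldAdult and 13.28 to 13.32 in YoungAdult arrays. That of 6 marginal cell markers was 11.62 to 11.78 in OldAdult and 11.44 to 11.58 in YoungAdult arrays, and that of 6 intermediate cell markers was 12.34 to 12.42 in OldAdult and 12.22 to 12.42 in YoungAdult arrays. In limma, 0 of the 7 fibrocyte and 0 of the 6 marginal cell markers passed an adjusted p of 0.05, with 1 and 2 at an unadjusted p under 0.05, and of the intermediate cell markers only Ednrb passed, at -0.36 (limma adjusted p = 0.0443), a call that was lost on leaving out any 1 array. With the mean of its probe sets Ednrb was at -0.59 (limma adjusted p = 0.00347). Over all genes, 2.33% passed with lower and 2.45% with higher signal.

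Egr1 and one of the probe sets of Egr3 carried the large differences of the family, and Egr2, Egr4, Nab1 and Nab2 did not. Over all 45037 probe sets, 2.84% passed a limma adjusted p of 0.05 with lower signal in OldAdult and 1.86% with higher signal. Of the 10 Egr and Nab probe sets, 2 passed with lower signal, 0 with higher signal and 8 did not pass in limma, and 3 had an unadjusted p under 0.05. Without YoungAdult replicate 2 the count with lower signal was also 2, where 3.42% of all probe sets passed with lower signal. Nothing is read from that count, since the genes were chosen on this contrast. Groups did not overlap for 3 of the 10, all lower in OldAdult, where 11.3% of all probe sets were lower and 12.5% higher without overlap. The median difference of the 10 was -0.14, against 0.01 for all probe sets.

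Egr1, also called Zif268 or Krox24, is the founding member of the family and the usual readout of serum response factor activity. It lies on chromosome 18, from 34861207 to 34864956 in GRCm38.p6, the build of all gene positions given here, and has 1 probe set, 1417065_at. Its log2 signal was 9.34, 8.67 and 8.77 in OldAdult arrays, against 12.18, 10.84 and 11.89 in YoungAdult arrays. The highest OldAdult array lay 1.50 below the lowest YoungAdult array, which was replicate 2. Egr1 averaged 8.93 ± 0.36 in OldAdult and 11.64 ± 0.71 in YoungAdult tissue (SD, n = 3 each), and the difference was -2.71 ± 0.32 (limma standard error). On the linear scale the OldAdult signal was 6.54-fold lower, with a 95% interval of 3.94-fold to 10.9-fold. Egr1 was chosen with its low OldAdult values known, so this size may be overstated, and the interval does not allow for that. Without YoungAdult replicate 2 the difference was -3.11.

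Egr3, a factor with roles in muscle spindle and lymphocyte development that is often induced together with Egr1, lies on chromosome 14, from 70077317 to 70082613, and has 2 probe sets that differed from each other. Probe set 1436329_at had signals of 4.16, 5.89 and 4.38 in OldAdult arrays, against 9.31, 7.77 and 8.49 in YoungAdult arrays. The groups lay 1.88 apart, and the array nearest to the other group was replicate 2 on both sides. It averaged 4.81 ± 0.94 in OldAdult and 8.52 ± 0.77 in YoungAdult tissue (SD, n = 3 each), a difference of -3.71 ± 0.49, with a 95% interval of -4.82 to -2.61. All 3 OldAdult signals lay below 6.28, the median over the probe sets tested. Whether they were above background was not examined, so the size of the difference is uncertain and no linear fold is given. Without YoungAdult replicate 2 the difference was -4.09.

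The second Egr3 probe set differed little, and its mean over the 6 arrays, 6.08, also lay below the median signal. Probe set 1421486_at had signals of 6.13, 6.17 and 6.07 in OldAdult arrays, against 6.08, 5.89 and 6.11 in YoungAdult arrays. The groups overlapped, and the difference was 0.10 ± 0.09, with a 95% interval of -0.10 to 0.30. A large difference between OldAdult and YoungAdult tissue was therefore seen for Egr3 in only 1 of its 2 probe sets, and the 2 disagreed. The annotation used ties 1421486_at, which differed little, to a RefSeq transcript of Egr3. It names no transcript for 1436329_at. Whether Egr3 as a gene was lower is therefore uncertain. With the mean of both, the Egr3 difference was -1.81. Which part of the transcript each probe set reads was not examined here.

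**Figure D1:**
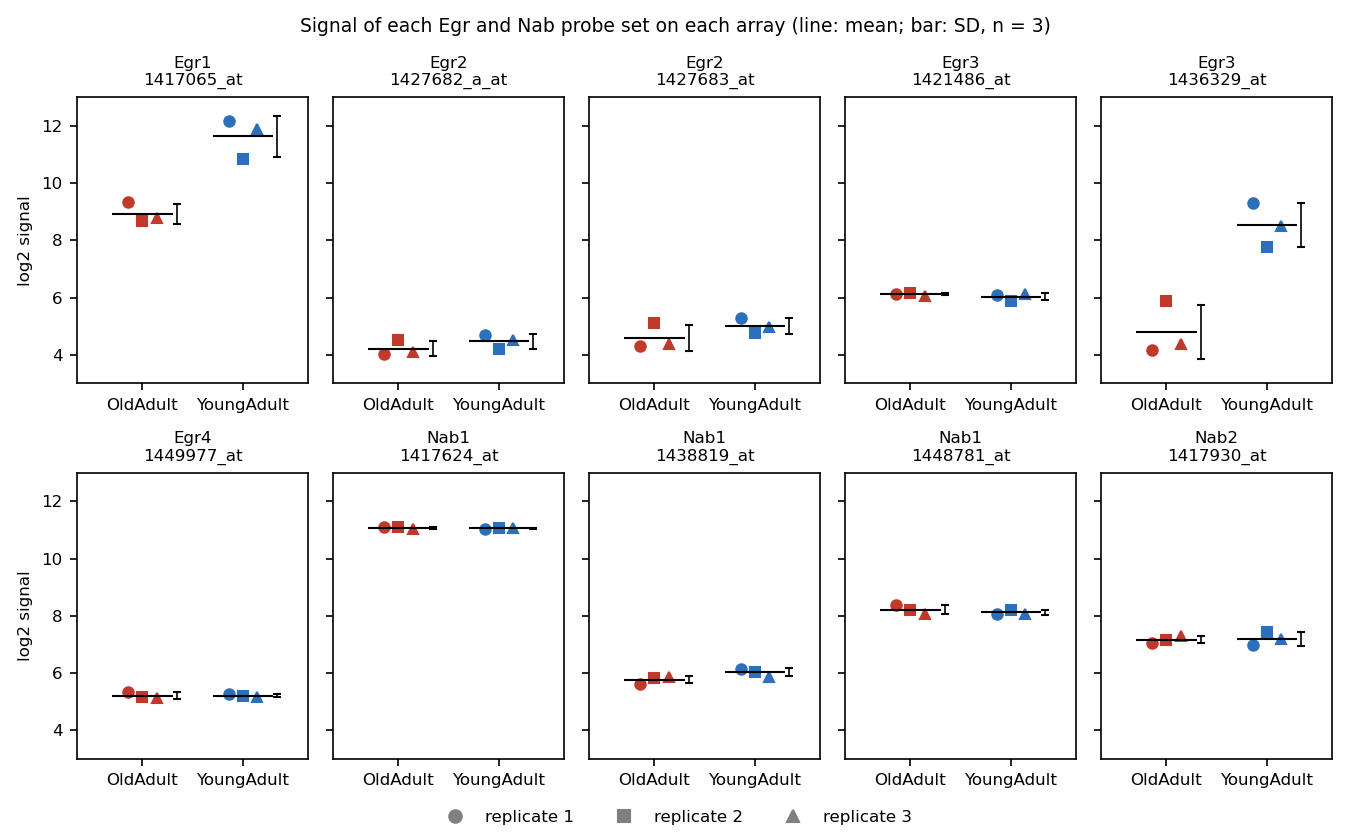
Log2 signal (y axis) of each Egr and Nab probe set on the 3 OldAdult (red) and 3 YoungAdult (blue) arrays, with symbols for the replicate number, lines for the group means and bars for the SD. Egr1 and Egr3 probe set 1436329_at are separated by age, with gaps of 1.50 and 1.88. The other panels span at most 0.99 over the 6 arrays, the range of Egr2 probe set 1427683_at.

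Replicates varied more for these 2 probe sets than for most others. The YoungAdult SD of Egr1 was exceeded by 59 of all probe sets, and that of Egr3 probe set 1436329_at by 36. In OldAdult arrays 596 probe sets had a larger SD than Egr1 and 13 a larger SD than Egr3 probe set 1436329_at. Egr2 probe set 1427683_at also varied in OldAdult arrays, where 204 probe sets had a larger SD. The 95% intervals of the Egr1 and Egr3 differences are accordingly wide, although the groups were far apart. These intervals do not allow for the choice of the genes on this contrast.

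Egr2, also called Krox20, was low, and its size of difference depended on OldAdult replicate 2. It lies on chromosome 10, from 67534469 to 67542188, and both of its probe sets were designed on the same accession and lay below the median signal of all probe sets, 6.28. Probe set 1427683_at had signals of 4.29, 5.12 and 4.38 in OldAdult arrays, against 5.28, 4.75 and 4.98 in YoungAdult arrays. OldAdult replicate 2 lay above 2 of the YoungAdult arrays, so the groups overlapped, and the difference was -0.41 ± 0.22, with a 95% interval of -0.91 to 0.09. Probe set 1427682_a_at had signals of 4.04, 4.52 and 4.08 in OldAdult arrays, against 4.69, 4.20 and 4.51 in YoungAdult arrays, a difference of -0.25 ± 0.16. The 2 probe sets ordered the arrays alike within each age. Without YoungAdult replicate 2 the differences were -0.53 and -0.39. Without OldAdult replicate 2 they were -0.67 and -0.41, the groups of both probe sets no longer overlapped, and neither passed in limma in either case.

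Egr4, on chromosome 6 from 85511121 to 85513589, had equal group means. Its probe set 1449977_at had signals of 5.35, 5.17 and 5.11 in OldAdult arrays, against 5.25, 5.21 and 5.17 in YoungAdult arrays. Both groups averaged 5.21, with a 95% interval of -0.20 to 0.20 for the difference. The signal lay below the median of all probe sets, and detection calls were not used here.

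The corepressors differed little between the ages. Nab1, on chromosome 1 from 52455849 to 52500712, had its brightest probe set, 1417624_at, at 11.09, 11.09 and 11.04 in OldAdult arrays, against 11.05, 11.07 and 11.06 in YoungAdult arrays. The whole range over the 6 arrays was 0.05, and only 0.0733% of all probe sets had a smaller range. The difference was 0.01 ± 0.07, with a 95% interval of -0.15 to 0.18.

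The other Nab1 probe sets differed in sign. Probe set 1448781_at had 8.39, 8.20 and 8.07 in OldAdult arrays, against 8.07, 8.21 and 8.08 in YoungAdult arrays, a difference of 0.10 ± 0.10 with overlapping groups. Probe set 1438819_at, below the median signal, had 5.63, 5.83 and 5.85 in OldAdult arrays, against 6.15, 6.04 and 5.87 in YoungAdult arrays. Its groups did not overlap, by a gap of 0.02, and the difference was -0.25 ± 0.10, which did not pass over all probe sets.

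Nab2, on chromosome 10 from 127660918 to 127666703 and the member of the pair that is induced by Egr proteins, had 1 probe set, 1417930_at. Its signals were 7.04, 7.15 and 7.30 in OldAdult arrays, against 6.97, 7.44 and 7.18 in YoungAdult arrays. The groups overlapped, and the difference was -0.03 ± 0.13, with a 95% interval of -0.32 to 0.26. YoungAdult replicate 2 was the highest array for Nab2 and the lowest YoungAdult array for Egr1. Without it the Nab2 difference was 0.09. For the second Egr3 probe set it was then 0.03, for Egr4 0.00, and for the Nab1 probe sets 1417624_at, 1438819_at and 1448781_at 0.02, -0.24 and 0.15.

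**Figure D2:**
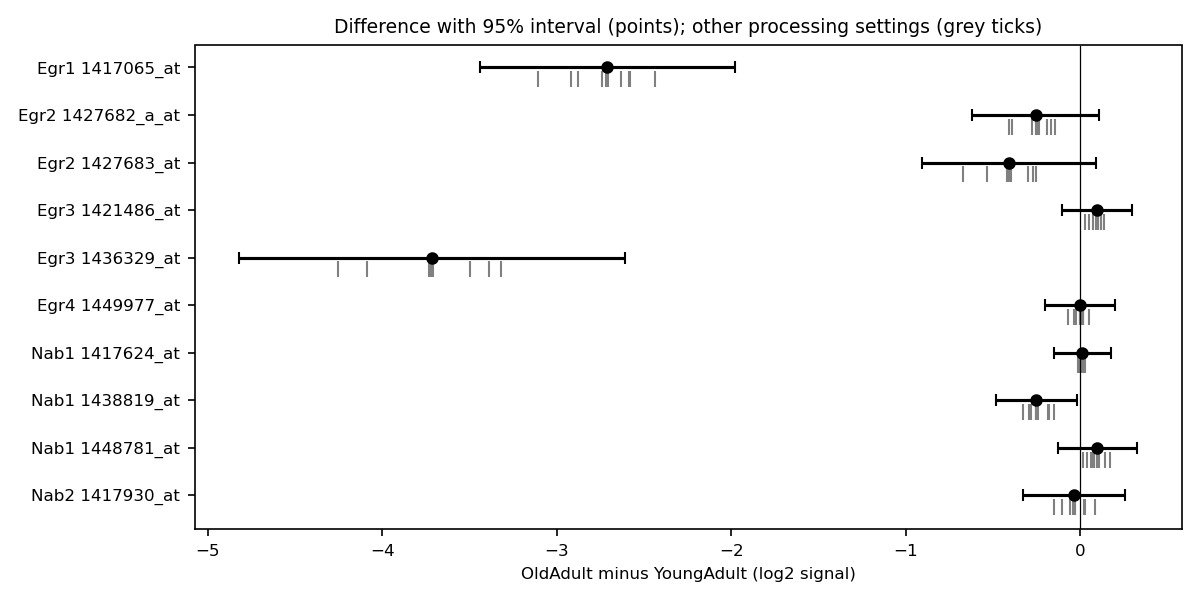
Difference OldAdult minus YoungAdult in log2 signal (x axis) for each of the 10 probe sets, with its 95% interval from limma, and grey ticks for the value under each other processing setting. Egr1 at -2.71 and Egr3 probe set 1436329_at at -3.71 lie apart from the other 8, which lie between -0.41 and 0.10.

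Within an age, arrays did not rank the same for every Egr gene. In YoungAdult arrays the order was replicate 1, then 3, then 2 for Egr1, for Egr3 probe set 1436329_at and for both Egr2 probe sets. In OldAdult arrays Egr1 was highest in replicate 1, whereas Egr3 probe set 1436329_at and both Egr2 probe sets were highest in replicate 2. The same 2 orders as for Egr2 and Egr3 were seen in the mean of 4 neuron markers (Nefl, Nefm, Tubb3 and Snap25), which was 4.37, 5.57 and 4.54 in OldAdult arrays and 5.66, 4.65 and 5.05 in YoungAdult arrays. Snap25, a synaptic protein gene, had signals of 4.36, 7.24 and 4.78 in OldAdult arrays and 7.14, 5.11 and 6.28 in YoungAdult arrays. Nefl had the same 2 orders, and Nefm had that of the YoungAdult arrays only. Tubb3 had neither, at 4.15, 4.09 and 4.27 in OldAdult arrays and 4.18, 4.37 and 4.17 in YoungAdult arrays. The group means of all 4 genes lay below the median signal of all probe sets, 6.28. The neuron markers overlapped between the ages, and 0 of 4 passed in limma, with 0 at an unadjusted p under 0.05. Other lists had 1 of the 2 orders. That of the OldAdult arrays was also seen in the hair cell mean (5.14, 5.55 and 5.33) and the spindle and root mean (12.85, 13.05 and 12.88). That of the YoungAdult arrays was also seen in the erythroid mean (6.25, 5.66 and 5.96) and the mean of other immediate early genes. How many of all genes had these orders was not counted. The part of neurons in the Egr2 and Egr3 values was not tested. Without OldAdult replicate 2 the Egr3 difference was -4.25.

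**Figure D3:**
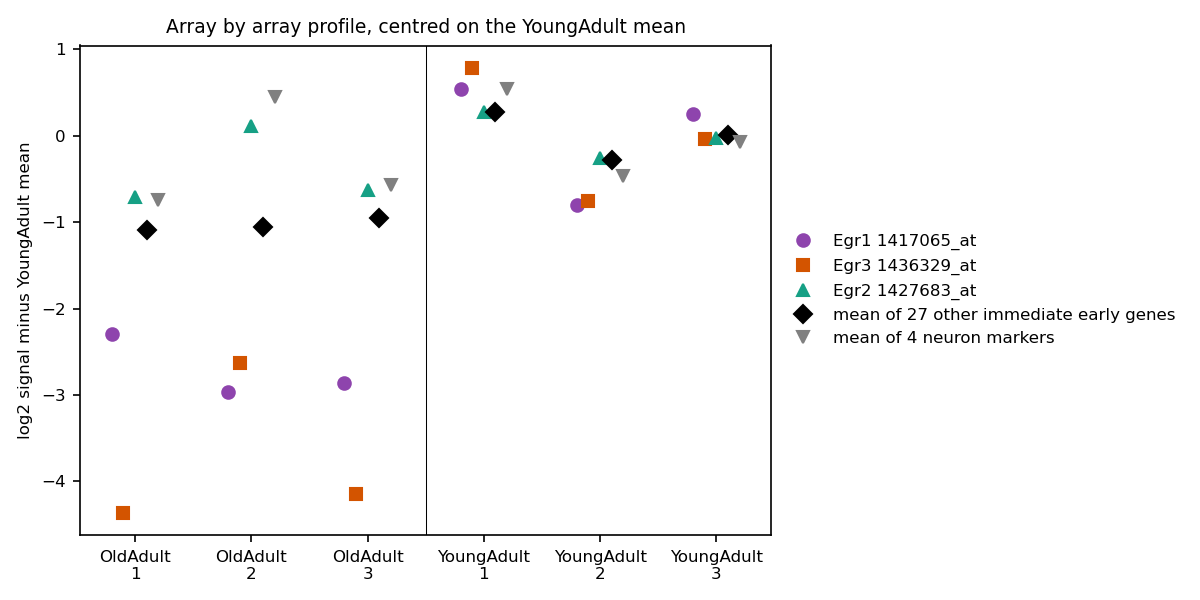
Log2 signal on each array minus the YoungAdult mean of the same series (y axis), for Egr1, Egr3 and Egr2, the mean of 27 other immediate early genes and the mean of 4 neuron markers. Egr3, Egr2 and the neuron markers have their highest OldAdult value in replicate 2, and all 5 series have their lowest YoungAdult value in replicate 2.

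Other immediate early genes were lower as a group. Of 27 measured genes of a list of 29 that leaves out the Egr genes, 14 fell, 1 rose and 12 did not pass in limma, where 2.33% of all genes passed with lower and 2.45% with higher signal. The median difference was -0.89, against 0.03 over all genes. The largest falls in the list were those of Fos, a subunit of the AP-1 factor, at -2.81 ± 0.21, and Maff, a small Maf bZIP factor gene, at -2.60 ± 0.24 (limma adjusted p = 0.000985 and 0.00194). Fos had signals of 7.43, 7.37 and 7.76 in OldAdult arrays, against 10.56, 9.82 and 10.62 in YoungAdult arrays. Maff had signals of 6.90, 6.30 and 6.63 in OldAdult arrays, against 9.76, 9.07 and 8.81 in YoungAdult arrays. Both were far apart between the ages. Ier5, a growth factor-induced nuclear protein gene, rose by 0.69 (limma adjusted p = 0.0181), a call that was lost with the mean of its probe sets, at 0.25, and without YoungAdult replicate 1 or 3 or OldAdult replicate 2 or 3. The list was picked with earlier results of these arrays known, so its direction is not independent evidence. Genes of this class can respond to stress within minutes, and whether handling at dissection differed between the ages was not tested.

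Of the genes of this list, only Fos had a lower difference than Egr1. Arc, a neuronal immediate early gene and known Egr target, was at 5.26, 5.13 and 5.21 in OldAdult arrays and 5.22, 5.08 and 5.19 in YoungAdult arrays, and Fosb and Myc did not pass either, at -0.19 and 0.12. Arc, Fosb and Myc lay below the median signal of all probe sets, 6.28, on every array. Whether they were above background was not examined. YoungAdult replicate 2 was the lowest YoungAdult array for 12 of the 14 that fell, as it was for Egr1 and Egr3, and lay above every OldAdult array for all 14. Over the 424 genes that passed with lower signal, that array was the lowest YoungAdult one for 51.2%. Without it, 18 of the 27 fell and 1 rose, where 2.63% of all genes passed with lower and 5.73% with higher signal. The count was 6 without YoungAdult replicate 3 and 9 without OldAdult replicate 1 or without OldAdult replicate 3.

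The measured kinases and factors that act on Egr promoters did not pass. Of 10 measured genes of a list of 16 (Srf, Elk1, Elk3, Elk4, Creb1 and 5 kinase genes), 0 passed in either direction in limma, 2 had an unadjusted p under 0.05, and the median difference was -0.05. Over all genes, 2.33% passed with lower and 2.45% with higher signal. A count of 0 is near those shares, so nothing is read from it. The smallest p were those of Mapk14, the p38 alpha kinase gene, at 0.26 ± 0.07, and Elk1, a partner of the serum response factor, at -0.32 ± 0.09 (limma adjusted p = 0.0855 and 0.0985). With the mean of all probe sets of the gene they were at 0.026 and -0.098 (limma adjusted p = 0.899 and 0.53). Srf itself had signals of 8.30, 8.29 and 8.38 in OldAdult arrays and 8.25, 8.34 and 8.15 in YoungAdult arrays. These arrays measure RNA and not the phosphorylation by which the kinases act.

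Genes reported elsewhere as Egr targets did not pass. Of 11 measured genes of a list of 13, 0 passed in either direction in limma, 2 had an unadjusted p under 0.05, the median difference was 0.02 and the range was -0.36 to 0.35. Over all genes, 2.33% passed with lower and 2.45% with higher signal. A count of 0 is near those shares, so nothing is read from it. Tgfb1 and Fasl lay below the median signal of all probe sets, 6.28, on every array. The smallest p were those of Ptges, a prostaglandin E synthase gene, at 0.35 ± 0.09, and F3, the tissue factor gene, at -0.36 ± 0.10 (limma adjusted p = 0.0655 and 0.0766). Both had groups that did not overlap, in opposite directions. Pdgfa and Pdgfb, growth factor genes with Egr1 sites in other cell types, were at 0.04 and 0.09.

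The partners through which Nab proteins repress did not pass either. Of 11 NuRD subunit genes, all measured, 0 passed in limma, 0 had an unadjusted p under 0.05, and the differences lay between -0.17 and 0.16. Over all genes, 2.33% passed with lower and 2.45% with higher signal. The 0 that passed are near those shares, so nothing is read from that count. The smallest p were those of Gatad2b at -0.17 and Hdac2, a histone deacetylase gene, at 0.16 (limma adjusted p = 0.341 and 0.371). With the mean of all its probe sets Hdac2 was at 0.062. Chd4, the remodelling enzyme that Nab2 recruits, was at 0.15 ± 0.09.

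Among 7 other zinc finger genes whose products bind GC-rich sites, Klf9 fell and Klf10 rose. Over all genes, 2.33% passed with lower and 2.45% with higher signal. Klf9, a glucocorticoid-induced factor, had signals of 12.59, 12.61 and 12.73 in OldAdult arrays, against 13.53, 13.31 and 13.52 in YoungAdult arrays, a difference of -0.81 ± 0.09 (limma adjusted p = 0.00372). Klf10, induced by TGF-beta, was at 0.39 ± 0.08 (limma adjusted p = 0.0391) and kept its call only on leaving out YoungAdult replicate 2. Sp1 and Sp3, which compete with Egr1 for overlapping sites, were at 0.15 and 0.13 and did not pass.

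Genes of Schwann cells and myelin, a list chosen because Egr2 regulates myelin in Schwann cells, showed no common direction. The list also holds the factor gene Sox10, which is not a myelin protein gene and was the only gene that rose. Of the 9 measured genes, 5 had a negative difference. Of 9 measured genes of a list of 12, 1 fell, 1 rose and 7 did not pass, and the median difference was -0.01. Over all genes, 2.33% passed with lower and 2.45% with higher signal. Pmp22, a compact myelin protein gene, fell to 11.42, 11.38 and 11.23 in OldAdult arrays, against 11.97, 11.90 and 11.70 in YoungAdult arrays (limma adjusted p = 0.0265). Sox10, the neural crest factor that is also expressed by strial melanocytes, rose to 11.58, 11.62 and 11.59 in OldAdult arrays, against 11.14, 11.33 and 11.19 in YoungAdult arrays (limma adjusted p = 0.0382). The Pmp22 call was lost without YoungAdult replicate 1 or any 1 OldAdult array, and the Sox10 call on leaving out any array except YoungAdult replicate 2 and with the mean of its probe sets, at 0.17. Mag and Gjb1, further myelin genes with low signals, were at -0.04 and -0.01.

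**Figure D4:**
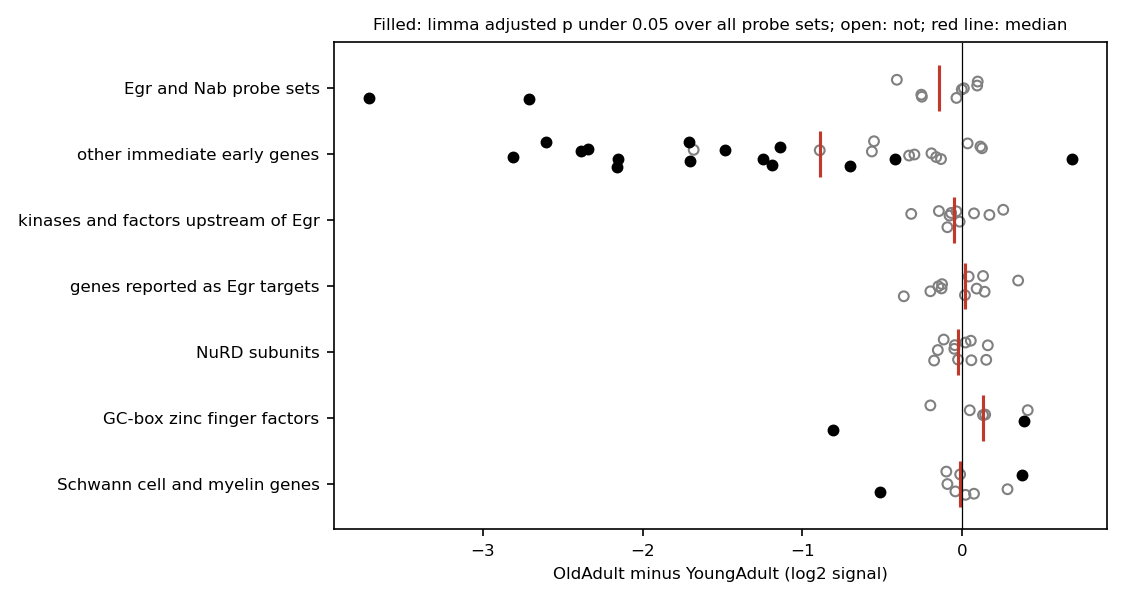
Difference OldAdult minus YoungAdult in log2 signal (x axis) for the 10 Egr and Nab probe sets and, at 1 probe set per gene, for each gene of 6 related lists, with filled points for a limma adjusted p under 0.05 over all probe sets, open points for the rest and red lines for the medians. The medians are -0.14 for the Egr and Nab probe sets and -0.89 for other immediate early genes, and between -0.05 and 0.13 for the other 5 lists.

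Markers of other cell types that could lie in the dissected tissue also differed between the ages. For every count in this paragraph the shares over all genes were 2.33% with lower and 2.45% with higher signal. Of 6 marrow neutrophil markers 5 fell, and of 5 measured bone markers 3 fell. Without YoungAdult replicate 3 each count was 1. The neutrophil count was 3 without YoungAdult replicate 2, OldAdult replicate 1 or OldAdult replicate 3, and the bone count was 2 in the last 2 cases. Of 4 smooth muscle markers, Tagln and Acta2 fell, by 1.23 and by 0.74 (limma adjusted p = 0.00393 and 0.00612), and the list mean was 6.29 to 6.45 in OldAdult and 6.71 to 7.05 in YoungAdult arrays. With the mean of its probe sets Acta2 was at -0.25 and did not pass. Of 6 T cell markers, Cd3g and Cd3d rose by 1.41 and 0.44 (limma adjusted p = 0.000985 and 0.0467), the second lost on leaving out any 1 array, and of 5 macrophage markers Cd68 rose by 1.16 (limma adjusted p = 0.0023). The T cell mean was 6.27 to 6.40 in OldAdult and 5.90 to 6.04 in YoungAdult arrays, and the macrophage mean was 8.74 to 8.93 in OldAdult and 8.36 to 8.51 in YoungAdult arrays. The part of these cell types in the Egr values was not tested. By array, the neutrophil mean was 6.96, 7.36 and 6.53 in OldAdult and 7.97, 8.36 and 8.55 in YoungAdult arrays, and the bone mean 7.31, 8.01 and 7.00 in OldAdult and 8.47, 8.94 and 9.03 in YoungAdult arrays. Both were highest in replicate 2 of the OldAdult arrays, as was Egr3 probe set 1436329_at, and lowest in replicate 1 of the YoungAdult arrays, where that probe set was highest. In limma, 0 of 5 endothelial and 0 of 4 pericyte markers passed, with 2 and 1 at an unadjusted p under 0.05. Of 3 basal, 3 spindle and root and 3 hair cell markers 0 passed in each list, with 1, 1 and 0 at an unadjusted p under 0.05. Of 3 erythroid markers 1 fell, a call that was kept on leaving out YoungAdult replicate 2 and on leaving out no other array.

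Genes whose signal followed a member most closely were looked up among 11584 genes above the median signal, as a description. Over the 6 arrays the highest Pearson correlations with Egr1 were those of Gpc6, Tbcc, Bmp1 and Vps37b, between 0.993 and 0.998, with differences of only -0.31, -0.24, -0.47 and -0.28. Those with Egr3 probe set 1436329_at were Rgs7bp, Ankrd52, Ncmap and Fstl1, between 0.994 and 0.996, with differences between -0.78 and -0.58. Such values mostly follow the split by age, which all of these genes share. On deviations from the age means, the highest were Mex3a, Hoxa7, Ptchd1 and Igfals with Egr1 and Col16a1, Htt, Ddost and Dagla with Egr3, between 0.991 and 0.999, and for these 2 genes none was among the first 4 by both measures. For the brightest Nab1 probe set, whose range was 0.05 with values given to 2 decimals, and for Nab2, the highest over the 6 arrays were Rasgrf2, Rpsa, Fbxo5 and D630033O11Rik and Arhgap5, 1110059G10Rik, Hcfc1r1 and Tmem33, between 0.965 and 0.988. On deviations from the age means they were 5031434O11Rik, Rnase4, Rasgrf2 and Rpsa for Nab1 and Tcta, Nudt13, Arhgap5 and Ercc4 for Nab2, so Rasgrf2, Rpsa and Arhgap5 were among the first 4 by both measures. The 6 arrays are the same for every gene and for both measures, so a gene found by both is not independent evidence. Among 11584 genes on 6 arrays, values this high can arise by chance, and this was not tested.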

How the data were processed

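Per the labels' protocols, RNA of microdissected lateral wall was made into biotin-labelled cRNA. Among tools, RMA, MAS5 and Affymetrix Expression Console appear in the submitters' processing notes, and which step each served is not given in the sources used here. The values used are the deposited log2 signals of 45101 probe sets, from 2.66 to 14.76, and array medians were 6.26 to 6.30. Scanner files and detection calls were not used here. With 3 arrays per age, precision is limited by that number.

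After 64 control probe sets were left out, all 45037 others were fitted with age as the only term by lmFit and eBayes of limma 3.58.1, under R 4.3.3, with Benjamini-Hochberg adjustment over all of them. Platform annotation gave 1 symbol to 34945 probe sets, several to 932 and none to 9160, and no gene was named from several symbols. All 6 member genes matched RefSeq (GRCm38.p6) by Entrez identifier. Lists used the brightest probe set of a gene.

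The members, lists and tests were chosen with earlier results of these data known. Named genes are all members, the 2 called genes with the largest difference per direction and list, or, in a list without calls, the 2 lowest p, and the 4 genes most like a member. Other genes were named after their values were seen. The fit was tested on simulated data. Alternatives were other scalings, a filter on dim probe sets, other variance models, a replicate block, a stricter threshold, probe set means and leaving out each array.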

Additional observations from a re-analysis of the deposited data

How the results depend on the processing

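Over the alternatives run, Egr1 and Egr3 probe set 1436329_at had differences of -3.11 to -2.44 and of -4.25 to -3.32, and the count of Egr and Nab probe sets past the threshold was 2 lower and 0 higher in each, from which nothing is read, since the genes were chosen on this contrast. The filter on dim probe sets left 5 of the 10 without a value. Signs near 0 turned for the brightest Nab1 probe set with cyclic loess (-0.013), for Nab1 with the mean of its probe sets (-0.046), and for Nab2 with array weights (0.022), without YoungAdult replicate 2 (0.088) and without OldAdult replicate 1 (0.028), within a range of -0.147 to 0.088 with 1 array left out. Over all probe sets, 1281 lower and 838 higher became 2214 and 2266 with array weights, and 320 and 116 at an adjusted p of 0.01. With 1 array left out the ranges were 382 to 1542 lower and 133 to 1851 higher. For the other immediate early genes, 7 were lower and 0 higher at an adjusted p of 0.01, 0 were higher with probe set means, and leaving out 1 array gave 6 to 18 lower and 0 to 1 higher. Of the upstream genes, 1 was lower with array weights, and 1 was higher with the filter on dim probe sets, with an intensity trend and robust variance, or with array weights. Of the reported targets, 1 was lower with the trend or with array weights, and 1 was higher with the dim filter or with array weights. Of the Schwann cell and myelin genes, 0 were lower at an adjusted p of 0.01 and 0 to 1 with 1 array left out. Genes of that list with higher signal numbered 2 with the trend or array weights, and 0 with the replicate block, at 0.01 and with probe set means. They numbered 0 to 1 with 1 array left out. GC-box genes with higher signal numbered 0 with cyclic loess, with the replicate block and at 0.01, 2 with array weights, and 0 to 2 with 1 array left out. Deviations from the group means correlated at 0.137, 0.0753 and 0.0078 between samples with the same replicate number. Between samples with different numbers the correlations were -0.114 to 0.0681. With 3 samples per group these values cannot tell whether the numbers pair the samples. The replicate block leaves a balanced difference the same by construction, -2.71 for Egr1 and -3.71 for Egr3, and gave the counts of calls named above. With it the standard error was 0.17 for Egr1 and 0.53 for Egr3, against 0.32 and 0.49 without it.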
